A study of Rattus norvegicus with 42 samples.

Results

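The comparison is between 2 groups of GH4C1 cultures in which Neat1, a long non-coding RNA gene, is deleted, sampled 34 h (T34) and 22 h (T22) after they were given fresh medium. Its members are the 3 knockout (KO) libraries of T34 and the 3 KO libraries of T22, chosen by their labels, 6 of the 42 libraries of the series. GH4C1 is an established line of rat somatolactotroph cells, pituitary cells that make growth hormone and prolactin. All cultures grew in HamF10 medium that held horse serum (15%) and fetal calf serum (2%), and both groups have the labelled genotype Neat1 -/- made with CRISPR-Cas9. By their labels they differ in the time of sampling only. The whole series holds KO and untreated wild-type (WT) cells at 7 times, every 4 h from T10 to T34, with 3 libraries at each time. The labels do not say whether the KO line is 1 clone, or whether the libraries of a group came from separate cultures. P-values then measure the spread between these libraries, which may be technical. The span from T22 to T34 was picked because the KO cultures were known to change most over it, so its size next to other spans is a description.

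Neat1 is a nuclear RNA that forms the core of paraspeckles, nuclear bodies that hold RNA-binding proteins and some transcripts. A change of medium with serum is a common way to bring cultured cells into step, after which clock-driven transcripts can rise and fall over about a day, while nutrients and serum factors in the medium are used up. The interval of 12 h corresponds to opposite phases of a daily cycle. T10 and T34 are a day apart. Genes are named by Ensembl identifiers in the count tables, which do not pair them with symbols. The reference table gave a symbol for 0 of the 13776 identifiers, so Neat1 itself, the pituitary markers and the lists of clock, stress, metabolic and cell cycle genes were not analysed here. Genes are therefore described by level and change, and 2 in each direction are given by identifier.

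The 6 libraries held 49.0 to 60.5 M counts (M, mega). Replicates lay close to each other. The correlation of log2 CPM (counts per M of TMM-scaled library size) over genes was 0.994 to 0.996 in the 6 pairs within a group, and the genes over 2-fold apart numbered 54 to 82 per pair. No pair agreed within sampling noise, with a chi-square per degree of freedom of 8.19 to 32.6. The highest values, 32.6 and 26.8, were those of the pairs with T34 replicate 1. In that library the most abundant gene held 19.0% of the counts, against 16.0% and 16.6% in T34 replicates 2 and 3 and 17.0% to 17.9% in the T22 libraries. The median coefficient of variation of a gene was 4.79% at T22 and 5.39% at T34 (3 libraries each).

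A large part of the measured transcriptome differed between KO T34 and KO T22. Of 13763 genes tested, 7613 (55.3%) were called, that is, had an adjusted p under 0.05 by edgeR's quasi-likelihood test with Benjamini-Hochberg adjustment. The directions were nearly even, with 3774 genes higher and 3839 lower at T34. Most changes were small: the median called gene that rose was 1.28-fold higher, and the median called gene that fell was 1.28-fold lower. Of the called genes, 266 rose and 199 fell at least 2-fold. In bulk RNA, fewer cells of a type and less RNA per cell cannot be told apart. The 3 T34 libraries all lay on 1 side of the 3 T22 libraries for 3581 of the genes that rose and 3749 of those that fell. Over all genes tested, 62.1% were separated in this way.

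Leaving out any 1 of the 6 libraries gave 6807 to 7195 called genes. The count fell to 4969 when the spread was estimated from all 42 libraries, of which WT T34 replicate 1 stands apart, and was 7353 when that 1 library was left out. Of the 4969 genes, 4919 were also called in the fit to the KO libraries, all in the same direction. A test against a minimum change of 1.5-fold called 486 genes.

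**Figure D1:**
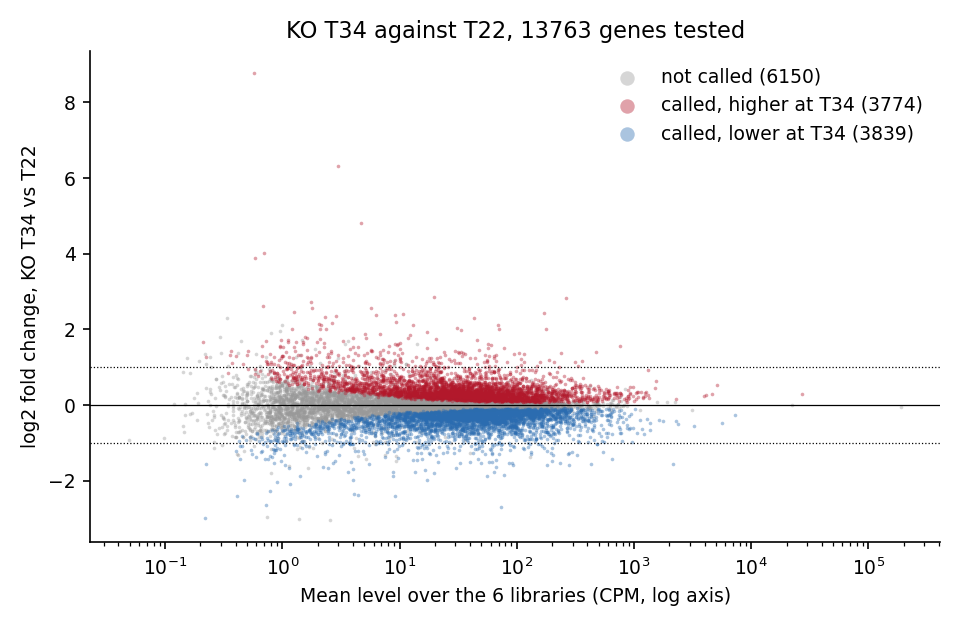
Each point is 1 of the 13763 genes tested. The horizontal axis gives its mean level over the 6 libraries in CPM on a log axis and the vertical axis its log2 fold change, KO T34 against T22. Red points are the 3774 called genes higher at T34 and blue points the 3839 lower; the dotted lines mark 2-fold. Called genes lie at all levels, and most lie inside the dotted lines.

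The changes were spread over the whole range of expression, but their direction was not. Genes were split into 5 classes of equal size by their mean level over the 21 KO libraries. In the lowest class (0.125 to 4.35 CPM) 27.4% of genes were called, and in the highest (78.9 CPM and above) 74.1% were. Among called genes, 58.4% of those in the lowest class were higher at T34 and 41.4% of those in the highest. Of the 266 genes that rose at least 2-fold, 133 were in the lowest class and 17 in the highest. The 199 genes that fell at least 2-fold were more evenly spread, with 67, 29, 28, 30 and 45 from the lowest class to the highest. At all levels together 31 called genes rose and 10 fell by 4-fold or more. Where the mean over the 6 libraries was 10 CPM or more, 103 rose and 108 fell by 2-fold or more, and 10 rose and 1 fell by 4-fold or more. Of the 10 most abundant genes of the KO libraries, 5 rose and 2 fell, with log2 fold changes between -0.47 and 0.53 over the 10.

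The genes given by identifier had to be called, have a mean of at least 10 CPM over the 6 libraries and show no overlap between T34 and T22, so the gap between their groups is part of the choice. Among genes that met this, the first in order of increase was ENSRNOG00000004554. Its level was 4.36, 4.29 and 5.93 CPM in the 3 T22 libraries and 34.1, 35.3 and 34.3 CPM in the 3 T34 libraries. All T34 libraries lay far above all T22 libraries. It rose 7.23-fold, a log2 fold change of 2.85 (SE 0.27, edgeR adjusted p 1.29e-07). Its KO level had first declined, from 11.6 ± 1.34 CPM at T10 to 4.60 ± 0.20 CPM at T26 (SD, n = 3 each). At T30 it was 5.76 CPM in replicate 1 and 19.2 and 13.7 CPM in replicates 2 and 3, so the replicates of that time were apart. In WT the mean was between 3.01 and 6.70 CPM at all 7 times, and no WT library reached the T34 level of KO.

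ENSRNOG00000007319, the second, was expressed at a higher level throughout. It stood at 63.7, 62.9 and 68.2 CPM in the T22 libraries and at 453, 446 and 474 CPM in the T34 libraries, with no overlap. It rose 7.15-fold, a log2 fold change of 2.84 (SE 0.21, edgeR adjusted p 1.75e-08). Unlike the first gene, it already stood above the T22 range in all 3 libraries of T26, at 154, 79.8 and 159 CPM. At T30 it was 236, 451 and 450 CPM, so that replicates 2 and 3 were within the T34 range and replicate 1 was not. WT showed an increase as well, from 32.6 ± 0.26 CPM at T22 to 67.3 ± 1.10 CPM at T34 (SD, n = 3 each). The WT level at T30 was still 31.2 ± 0.67 CPM (SD, n = 3).

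The largest decrease under the same rule was that of ENSRNOG00000012772. It stood at 125, 126 and 128 CPM in the T22 libraries and at 17.0, 18.5 and 22.2 CPM in the T34 libraries. The 2 groups were far apart, and the level was 6.48-fold lower at T34, a log2 fold change of -2.70 (SE 0.26, edgeR adjusted p 1.24e-07). This gene was in decline before T22, with 209 ± 1.51 CPM at T10 and 164 ± 4.08 CPM at T18 (SD, n = 3 each). At T30 replicate 1, with 106 CPM, was near the T26 level of 118 ± 5.51 CPM (SD, n = 3), and replicates 2 and 3 had 31.3 and 48.7 CPM. KO was above WT from T10 to T26. At T34 all 3 KO libraries lay below all 3 WT libraries, which had 31.3, 47.2 and 45.0 CPM.

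ENSRNOG00000018854 followed. It had 26.2, 25.3 and 30.7 CPM at T22 and 7.42, 7.09 and 6.28 CPM at T34, without overlap. The level was 3.90-fold lower, a log2 fold change of -1.96 (SE 0.20, edgeR adjusted p 2.34e-07). It had been steady in KO, with group means of 26.3 to 28.8 CPM from T10 to T26. At T30 it was 19.9 CPM in replicate 1 and 8.71 and 9.22 CPM in replicates 2 and 3. In WT it stood at 3.12 ± 0.72 CPM at T18 and 5.93 ± 0.60 CPM at T34 (SD, n = 3 each), so the KO level moved towards that of WT.

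**Figure D2:**
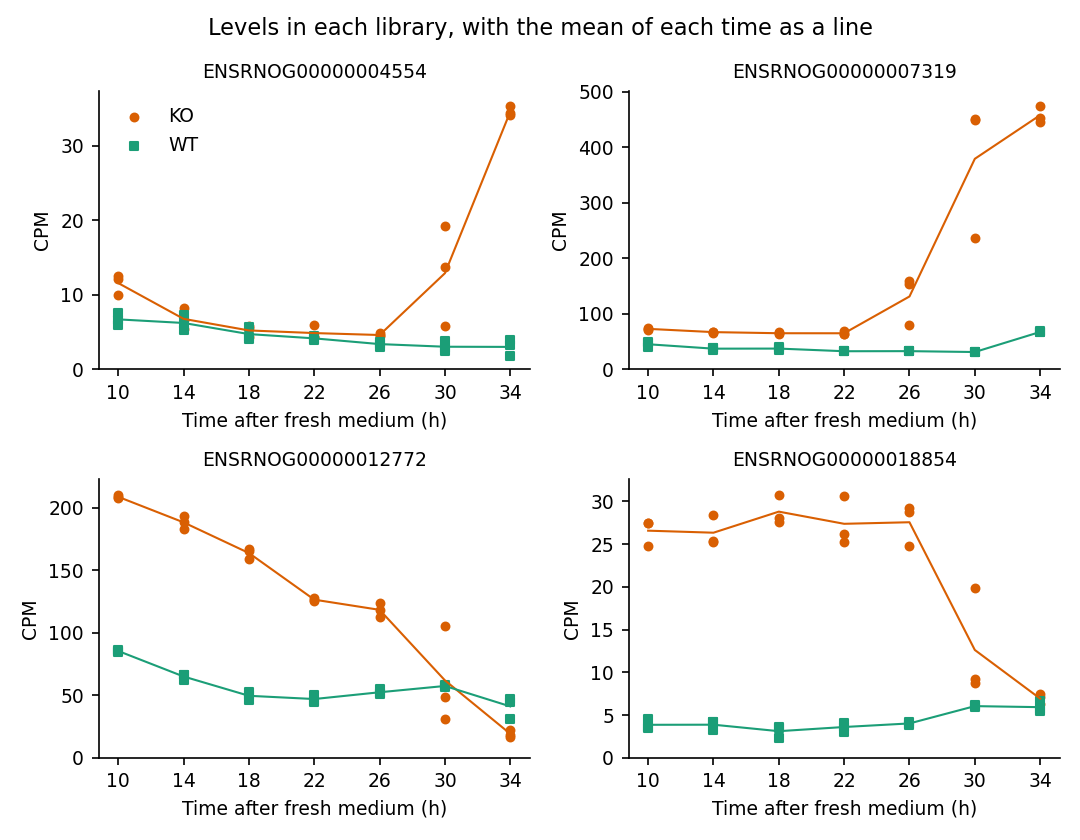
Level in CPM (vertical axis, from 0) of the 2 genes with the largest increase (top) and the 2 with the largest decrease (bottom) from KO T22 to KO T34 among genes of at least 10 CPM, against the time after fresh medium in hours. Points are single libraries, 3 per time, KO in orange and WT in green, and lines join the means. The KO lines are steepest after T26, with KO T30 replicate 1 nearest to the earlier level in all 4 panels.

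The course of the whole group of changed genes was followed in every KO library as the median, over genes, of the log2(CPM + 1) difference from the mean of KO T10. By construction T22 and T34 are apart on this measure. The other KO times were not compared in choosing the genes and entered the choice only through the shared fit. For the 266 genes that rose at least 2-fold, the median was -0.10 ± 0.00 at T14, -0.09 ± 0.01 at T18 and -0.01 ± 0.04 at T26 (SD, n = 3 each). At T30 it was 0.08 in replicate 1, 0.61 in replicate 2 and 0.53 in replicate 3, against 0.85 to 0.90 in the T34 libraries. The group thus stayed near its T10 level up to T26, and 2 of the 3 libraries of T30 were well on the way to the T34 level.

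The 199 genes that fell at least 2-fold gave the mirror image. Their median was 0.06 ± 0.02 at T14, 0.06 ± 0.00 at T18 and -0.04 ± 0.07 at T26 (SD, n = 3 each). At T30 it was -0.13, -0.77 and -0.63 in replicates 1, 2 and 3, and at T34 it was -1.01 to -0.96. At T26 the medians of replicates 1, 2 and 3 were 0.02, -0.06 and -0.01 for the genes that rose. T10 and T34 stand at the same phase of a daily cycle, and of these 2 times only T34 was compared in choosing the genes. From T10 to T34 the group means moved by 0.88 ± 0.03 for the genes that rose and by -0.98 ± 0.03 for those that fell (SD, n = 3 each). The genes were chosen for a change of at least 2-fold between T22 and T34, and the T22 means lay near T10, at -0.12 and 0.06. The distance of T34 from T10 therefore follows largely from the choice, and a daily cycle was not tested.

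**Figure D3:**
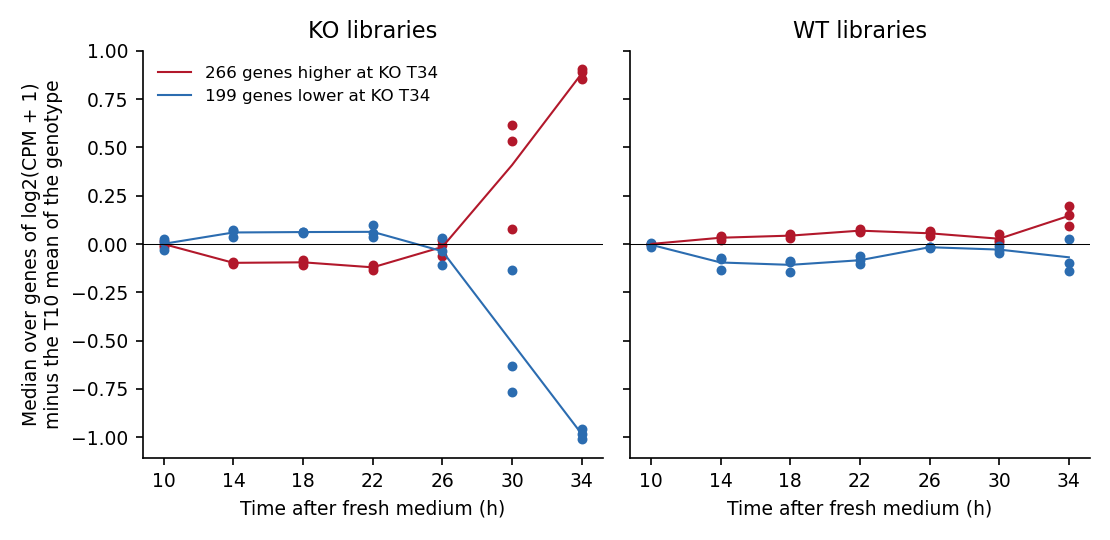
Median over genes of log2(CPM + 1) minus the T10 mean of the same genotype (vertical axis) against time after fresh medium in hours, in KO (left) and WT (right) libraries. Points are libraries, 3 per time, and lines join the means, for the 266 genes that rose (red) and the 199 that fell (blue) at least 2-fold from KO T22 to KO T34. In KO both groups part after T26, with replicate 1 of T30 behind replicates 2 and 3, while in WT all points lie between -0.14 and 0.20.

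The same test was applied to the other 12 h spans of the KO series. T22 against T10 gave 715 called genes (5.20%), T26 against T14 gave 1000 (7.27%), and T30 against T18 gave 5005 (36.4%), against 55.3% for T34 against T22. The first 2 counts were less firm. Leaving out any 1 of the 6 libraries lowered the count for T22 against T10 to 312 to 393. For T26 against T14 it gave 427 to 631, except 1032 without KO T26 replicate 2. The T30 count was 6125 (44.5% of genes) without KO T30 replicate 1. In steps of 4 h, 288 genes (2.09%) were called from T22 to T26, 3553 (25.8%) from T26 to T30 and 2906 (21.1%) from T30 to T34. Without KO T30 replicate 1 the last 2 counts were 5320 and 1581. Fitted to the 6 libraries of the step alone, edgeR called 191 genes from T22 to T26, 1 from T26 to T30 and 0 from T30 to T34, with 3577 and 3148 genes at an unadjusted p under 0.05 in the last 2 steps. In such fits T22 against T10 gave 1384 genes and T30 against T18 gave 2452, while a fit to all 42 libraries gave 183 for T22 against T10, 264 for T26 against T14 and 2556 for T30 against T18. Each of the 6 libraries moved the first step by over 1.5 times when left out, to 66 genes without KO T26 replicate 1 at the lowest and 472 without KO T26 replicate 2 at the highest. The second step fell to 2322 without KO T26 replicate 2, 1813 without KO T30 replicate 2 and 2066 without KO T30 replicate 3. The last step fell to 1552 without KO T34 replicate 2 and 1928 without KO T34 replicate 3.

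**Figure D4:**
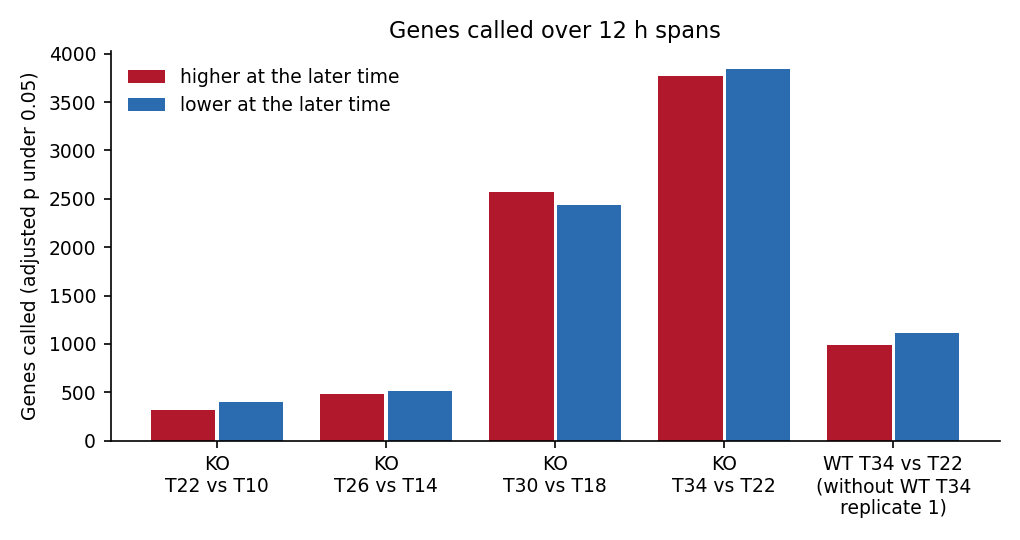
Number of genes called by edgeR (vertical axis, adjusted p under 0.05) as higher (red) or lower (blue) at the later of 2 times 12 h apart, for 4 spans in KO and for the last span in WT without WT T34 replicate 1. The KO bars grow from 318 and 397 genes for T22 against T10 to 3774 and 3839 for T34 against T22; the WT bars stand at 991 and 1116.

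T30 and T18 share no library with T34 and T22, so the fold changes between them came from libraries outside the T34 and T22 groups. The calls are not fully apart, since the same fit to the 21 KO libraries gave the spread of each gene for both spans. A gene with low spread is more readily called in both, and this was not adjusted for. Of the 3774 genes that rose from T22 to T34, 2066 (54.7%) were called higher and 23 called lower at T30 against T18, where 18.7% of all genes tested were called higher. These 2066 made up 80.5% of the 2567 genes called higher at T30 against T18, from a set of 3774 among the 13763 genes tested. Of the 3839 genes that fell, 2046 (53.3%) were called lower and 21 higher, where 17.7% of all genes tested were called lower. These 2046 made up 83.9% of the 2438 genes called lower, from a set of 3839 among the 13763 genes tested. The median log2 fold change at T30 against T18 was 0.21 for the genes that rose and -0.19 for those that fell, against 0.00 for all genes. The called genes lean to high expression, where any change is more readily called, and this was not adjusted for.

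The agreement between the 2 spans was closer without KO T30 replicate 1. That library showed the least of the change at T30, so closer agreement without it follows from the choice. Then 66.3% of the genes that rose were called higher and 66.3% of those that fell were called lower at T30 against T18. Without that library, 3097 (22.5%) of all genes tested were called higher at T30 against T18 and 3028 were called lower. Across the 13763 genes, which are not independent replicates, the correlation of the 2 sets of log2 fold changes was 0.66 with all libraries and 0.73 without that library. Between T26 and T14, which also share no library with T34 and T22, the changes were much smaller. There 254 (6.73%) of the genes that rose were called higher and 82 called lower, where 3.53% of all genes were called higher. Of the genes that fell, 264 (6.88%) were called lower and 76 higher, where 3.73% of all genes were called lower. Median log2 fold changes were 0.04 and -0.03.

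In WT the same span was less regular. WT T34 replicate 1 stands apart from replicates 2 and 3, and the median coefficient of variation of a gene was 24.3% over the 3 WT T34 libraries, against 5.27% at WT T22. With all libraries 3669 genes (26.6%) were called for WT T34 against T22, 2438 higher and 1231 lower. Without WT T34 replicate 1 the count was 2107 (15.3%), 991 higher and 1116 lower. It was 6946 without WT T34 replicate 2, 2166 without WT T22 replicate 2 and 2178 without WT T22 replicate 3. Fitted to the 6 WT libraries alone, edgeR called 0 genes, with 779 at an unadjusted p under 0.05. With all libraries 541 (14.3%) of the genes that rose in KO were called higher in WT and 286 (7.58%) lower. Of those that fell in KO, 895 (23.3%) were called higher in WT and 495 (12.9%) lower. Among all genes, 17.7% were called higher and 8.94% lower. The median log2 changes in WT were then 0.00 and 0.04. Without WT T34 replicate 1 the median WT change was 0.04 on the log2 scale for the 3774 genes that rose in KO and -0.03 for the 3839 that fell. Of the genes that rose in KO, 440 (11.7%) were called higher and 259 lower in WT, where 7.19% of all genes were called higher. Of the genes that fell in KO, 475 (12.4%) were called lower and 222 higher in WT, where 8.10% of all genes were called lower. The correlation over the 13763 genes was 0.13, and with WT T34 replicate 1 it was -0.06.

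**Figure D5:**
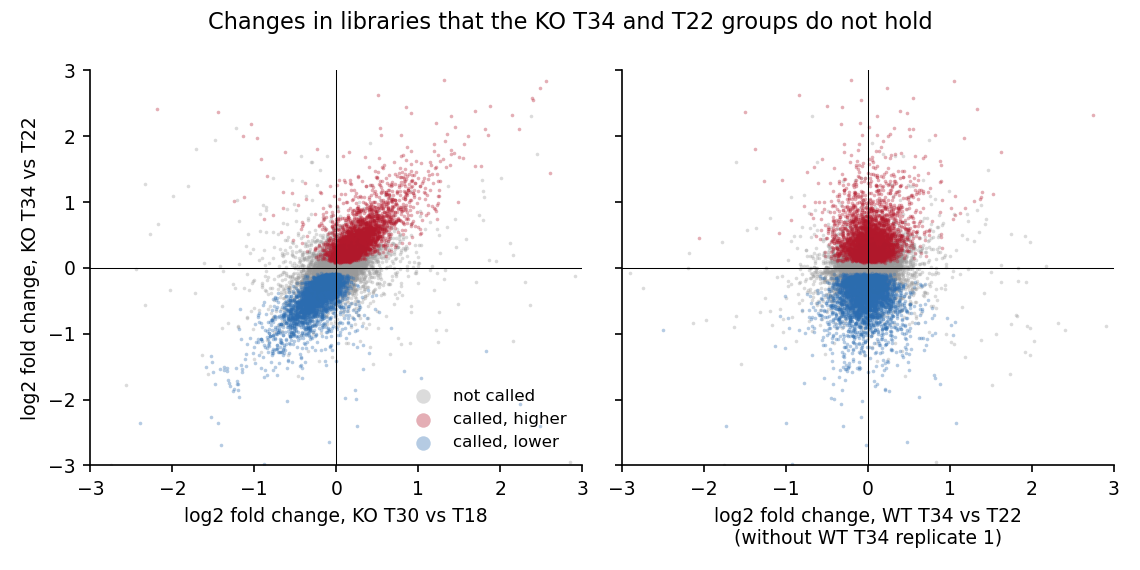
Each point is a gene, with its log2 fold change for KO T34 against T22 on the vertical axes and, on the horizontal axes, its log2 fold change for KO T30 against T18 (left) or for WT T34 against T22 without WT T34 replicate 1 (right). Genes called higher for KO T34 against T22 are red, those called lower blue and the others grey; 14 genes lie outside the axes, which end at -3 and 3. The cloud is tilted on the left (correlation 0.66) and nearly upright on the right (0.13).

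Whether the change from T22 to T34 differed between KO and WT was tested directly as a difference of the 2 differences. With all libraries 4869 genes (35.3%) were called, and 4992 (36.2%) were called without WT T34 replicate 1; 3463 genes were called both times, all in the same direction. Leaving out each of the 12 libraries in turn gave 4022 to 6882, and a fit to these 12 libraries alone gave 1367. The set of 2-fold changed genes was chosen on the KO libraries that enter this test, so its counts are given as a description. Of the 266 genes that rose at least 2-fold, the KO change was called more positive than the WT change for 195 (73.3%), and 208 (78.2%) without WT T34 replicate 1. Of all genes tested, 13.9% were called in this direction, and 16.5% without that library. Of the 199 that fell at least 2-fold, the KO change was called more negative for 173 (86.9%), and 162 (81.4%) without WT T34 replicate 1. Of all genes tested, 21.4% were called in this direction, and 19.8% without that library.

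The 4 named genes were chosen on the KO libraries too, so their differences between the genotypes are likewise a description. The KO change minus the WT change on the log2 scale was 3.30 for ENSRNOG00000004554 (SE 0.38) and 1.77 for ENSRNOG00000007319 (SE 0.23). It was -2.53 for ENSRNOG00000012772 (SE 0.30) and -2.69 for ENSRNOG00000018854 (SE 0.28). In WT the last of these changed in the other direction, with a log2 fold change of 0.71 (SE 0.20, edgeR adjusted p 0.00950). Without WT T34 replicate 1 this value was 0.63 (SE 0.22, edgeR adjusted p 0.0472), near the threshold.

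The levels that the changing genes had before the shift were compared with WT at T18 and at T10, in libraries outside the T34 and T22 groups. Genes that later fell in KO tended to stand above WT, and genes that later rose tended to stand below it. Called genes that fell lean to high KO levels and those that rose to low KO levels. The part of level in this trend was not tested. At T18, 1904 (49.6%) of the 3839 genes that fell were called higher in KO than in WT and 916 lower, where 34.8% of all genes were called higher. Of the 3774 genes that rose, 1727 (45.8%) were called lower in KO and 959 higher, where 34.1% of all genes were called lower. The median difference between KO and WT at T18 was 0.23 for the genes that fell and -0.17 for those that rose, on the log2 scale. WT T34 replicate 1 entered the estimate of spread in the tests at T18 and T10, and no fit without it was made for them.

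The genes that fell at least 2-fold showed the widest gap. At T18, 117 (58.8%) of these 199 were called higher in KO and 23 (11.6%) lower, where 34.8% and 34.1% of all genes were. Their median difference was 0.65. Of the 266 genes that rose at least 2-fold, 54 (20.3%) were called higher and 102 (38.3%) lower in KO at T18. The share called lower was near the 34.1% of all genes. At T10 the differences of all called genes were smaller. There 1802 (46.9%) of the genes that fell were called higher in KO, where 35.1% of all genes were, and 1655 (43.9%) of those that rose were called lower, where 34.5% of all genes were. The medians were 0.19 and -0.14. The genes that rose at least 2-fold did not share this at T10, with 80 (30.1%) called higher and 84 (31.6%) lower in KO and a median of -0.07. Of the 199 genes that fell at least 2-fold, 89 (44.7%) were called higher and 31 (15.6%) lower in KO at T10. Their median difference was 0.37, smaller than at T18. ENSRNOG00000018854 and ENSRNOG00000012772, the 2 named genes that fell, were above WT at T18 by 3.20 (SE 0.21) and 1.72 (SE 0.21) on the log2 scale. The comparison of KO with WT at 1 time also holds any difference between the cell lines or between the library sets, and the 2 cannot be told apart.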

How the data were processed

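RNA sequencing was done on GH4C1 cells, KO and WT, at 7 times with 3 libraries each. Per the labels' protocols, total RNA was sequenced as strand-specific paired reads of 150 bp. The authors deposited whole-number read counts per Ensembl gene for each library, without normalization, in 1 table per genotype. The submitters' processing notes name featureCounts; aligner, genome build, annotation and strand setting are not given in the sources used here. Overlapping genes and near-identical copies may share reads. No sequences are printed, because no identifier matched the reference.

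The members, gene lists and comparisons were chosen with earlier results of these data known. Counts of KO libraries (45.9 to 60.5 M each) were fitted in R 4.3.3 with edgeR 4.0.16 by glmQLFit with TMM scaling and a mean per time over 21 libraries. WT, interaction and KO against WT tests used all 42 libraries. The filter filterByExpr removed 13 genes from the KO fit. P-values were adjusted by Benjamini-Hochberg within each comparison, threshold 0.05. SE is the log2 fold change divided by the square root of F. CPM uses TMM scaling over 42 libraries. Named genes had to be called, have a mean of at least 10 CPM over the 6 libraries and no overlap between the groups; 2858 and 3160 genes met this. The rule also asked for a symbol and took 12 per direction; with no symbols, only the first 2 are given, and the genes with the largest interaction are not named.

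Counts were simulated for 13763 genes with 200 changed at KO T34. The test of KO T34 against T22 recovered 75.5% at a log2 change of 0.5 (7 false calls) and 87.0% at 1 (11 false calls). Far more genes, 7613, were called in the data, so the simulation does not give their rate of false calls. The median absolute log2 changes of called genes, 0.35 (higher) and 0.36 (lower), lay below the smallest change simulated. No outlying library was simulated. Alternatives were other scalings and filters, DESeq2 1.42.0, a 1.5-fold minimum, the replicate number as a block, and other sets of libraries.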

Additional observations from a re-analysis of the deposited data

Results flagged for a closer look

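The change from T22 to T34 differed between KO and WT, by the direct test of the difference in edgeR, for 4869 genes. For the 4 named genes the KO change minus the WT change on the log2 scale was 3.30 for ENSRNOG00000004554, 1.77 for ENSRNOG00000007319, -2.53 for ENSRNOG00000012772 and -2.69 for ENSRNOG00000018854. These 4 genes were chosen for their KO change, so these differences are a description. The WT library that stands apart, WT T34 replicate 1, enters these values. A fit to the 12 libraries compared gave 1367 genes. Leaving that WT library out gave 4992 genes, and differences of 3.04, 1.76, -2.69 and -2.61 in the same order. Groups of 3 libraries are too small for a test of single outlying libraries, and none was made.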

How the results depend on the processing

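Alternatives gave 282 values for 19 results. Of these, 239 kept the direction and call of a log2 fold change or stayed within 1.5 times of the count, including all 140 values of the 4 named genes. Those genes were chosen for large changes without overlap, so their values say little about the other results. Called genes of KO T34 against T22 enter as all, as higher and as lower, which are not independent. Why the remaining values moved was not tested. For KO T34 against T22, a test against a change of 1.5-fold, a stricter demand, gave 486 genes (253 higher, 233 lower), and a fit to all 42 libraries gave 4969 (2398 higher); DESeq2 gave 7626 and library totals 7485, with 54.7% higher against 49.6% with TMM. With all 42 libraries T22 against T10 gave 183, T26 against T14 264 and T30 against T18 2556. With only the libraries compared, T22 against T10 gave 1384, T30 against T18 2452, T30 against T26 1, T26 against T22 191, and the interaction 1367. In such fits edgeR called 0 genes for KO T34 against T30 and 0 for WT T34 against T22, with 3148 and 779 genes at an unadjusted p under 0.05; DESeq2, run on the larger sets only, called 3230 and 3967. DESeq2 called 540 for T26 against T22. With 1 library left out the counts were 312 to 393 for T22 against T10, 427 to 1032 for T26 against T14, 1813 to 5320 for T30 against T26, 66 to 472 for T26 against T22, 1552 to 3622 for T34 against T30 and 2107 to 6946 for WT T34 against T22. The lowest of these came without KO T10 replicate 1, KO T26 replicate 1, KO T30 replicate 2, KO T26 replicate 1, KO T34 replicate 2 and WT T34 replicate 1.

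The replicate numbers of KO T22 and KO T34 showed no sign of pairing the samples. Deviations of same-numbered libraries correlated at -0.07 to -0.03 over genes, and those of differently numbered libraries at -0.01 to 0.05. With 3 libraries per group this cannot exclude a pairing. With the replicate number as a block 7711 genes were called for KO T34 against T22, and 795, 1097 and 5153 for the 3 earlier spans. Alternatives for named gene lists were not run, since no identifier was paired with a symbol. Genes below 4.35 CPM were called least often of the 5 classes by level, 27.4% of them, and the part of depth in this was not tested.

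Alternatives for the 4 h steps, and library totals without the 2 most abundant genes, were chosen after the data were seen.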
